A study of Mus musculus with 39 samples.

Results

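Serpins are a family of proteins that share a fold in which an exposed loop near the end of the chain acts as bait for a protease. The RNAs described here are the genes with a symbol of the form Serpin, a clade letter from a to i and a number, found in the expression tables of both gradients: 34 of the 13230 genes that the tables share. Of these, 26 belong to the secreted clades a, c, d, f and g, 5 to the intracellular clade b and 2 to other clades, and 1 is Serpinh1. A member is named secreted by its clade letter alone, and whether each product is secreted was not checked. All 34 were in each table, which held 13982 genes for gradient 1 and 13634 for gradient 2. RNA was sequenced in ATLAS-Seq, in which a liver homogenate made with beads and without detergent is cleared of nuclei and spun into a sucrose gradient, so that fraction numbers rise with density. The 39 libraries come from livers of wild-type FVB female mice and form 2 gradients that are biological replicates, with 17 libraries (fractions 4 to 19 and 21) in gradient 1 and 22 libraries (fractions 3 to 24) in gradient 2. All libraries share this genotype, no treatment is named, and neither the age of the mice nor how many served for each gradient is given in the sources used here. Every value is a TPM, a gene's part of a fixed total of transcripts in that library, which gives an RNA's share of its fraction and not an amount.

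Most serpins made by the liver are secreted into the blood, where they restrain neutrophil proteases, clotting, fibrinolysis and complement, while a few carry hormones and no longer inhibit proteases. They are made on the endoplasmic reticulum (ER), fold there and leave through the secretory pathway. Clade b serpins have no cleaved signal peptide and mostly stay in the cytosol, where they guard cells against their own proteases, and Serpinh1 (HSP47) is a chaperone of procollagen that is kept in the ER.

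To ask how these RNAs are spread along the gradient, 3 zones were defined, a light one of fractions 4 to 7, a middle one of fractions 10 to 13 and a dense one of fractions 16 to 19. The mean of log2(TPM + 1) in a zone was taken for each gradient, and limma was used to compare zones (n = 2 gradients per zone). The fit covered the 11754 genes whose TPM averaged 1 or more, with p adjusted over all of them, and a gene is said to be called at an adjusted p under 0.05. The filter was passed by 31 members: 25 of the secreted clades, all 5 of clade b and Serpinh1. The other 3, among them Serpina5 and Serpine3, were below it and were not tested. Zones of a gradient are parts of the same homogenate, so a change is one of place in the gradient. Each fraction mixes RNA of all cell types of the liver, and in a level fewer cells of a type and less RNA per cell cannot be told apart.

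Secreted serpin RNAs were mostly lower in the dense zone than in the light zone, while those of clade b were not. Of the 25 secreted members tested, 17 were lower in the dense zone, 1 (Serpina3i) was higher and 7 were not called, and over all genes tested 39.6% were lower and 22.3% higher. Serpina4-ps1, among those lower, and Serpina3h, among those not called, are annotated as pseudogenes and have no annotated coding sequence. The median change of all 26 was −1.51 on the log2(TPM + 1) scale, −2.08 in gradient 1 and −0.84 in gradient 2, against −0.43 for all genes tested. Clade b had 2 of 5 members higher (Serpinb1a and Serpinb8) and 0 lower in limma, with 2 of 5 at an unadjusted p under 0.05 (7825 of the 11754 genes were), and a median change of 0.71 (0.78 and 0.64 in gradients 1 and 2). Serpinh1 changed by −1.49, a value that depends on the scale: after quantile normalization it was −0.83, against a secreted median of −1.52, and with a pseudocount of 0.1 it was −2.53, against −1.64. The secreted count rests on few gradients: it was 7 without the light zone of gradient 1, 9 without that of gradient 2 and 11 without the dense zone of gradient 1, when 27.8%, 30.8% and 35.9% of all genes were lower. The excess over all genes was thus absent in the first of these and small in the others. The count of clade b members that were higher was 1 without any of these 3 (15.6%, 14.9% and 17.5% of all genes were higher). With the gradient as a block, 19 secreted members were lower and 4 clade b members higher, and so were 50.0% and 30.5% of all genes.

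**Figure D1:**
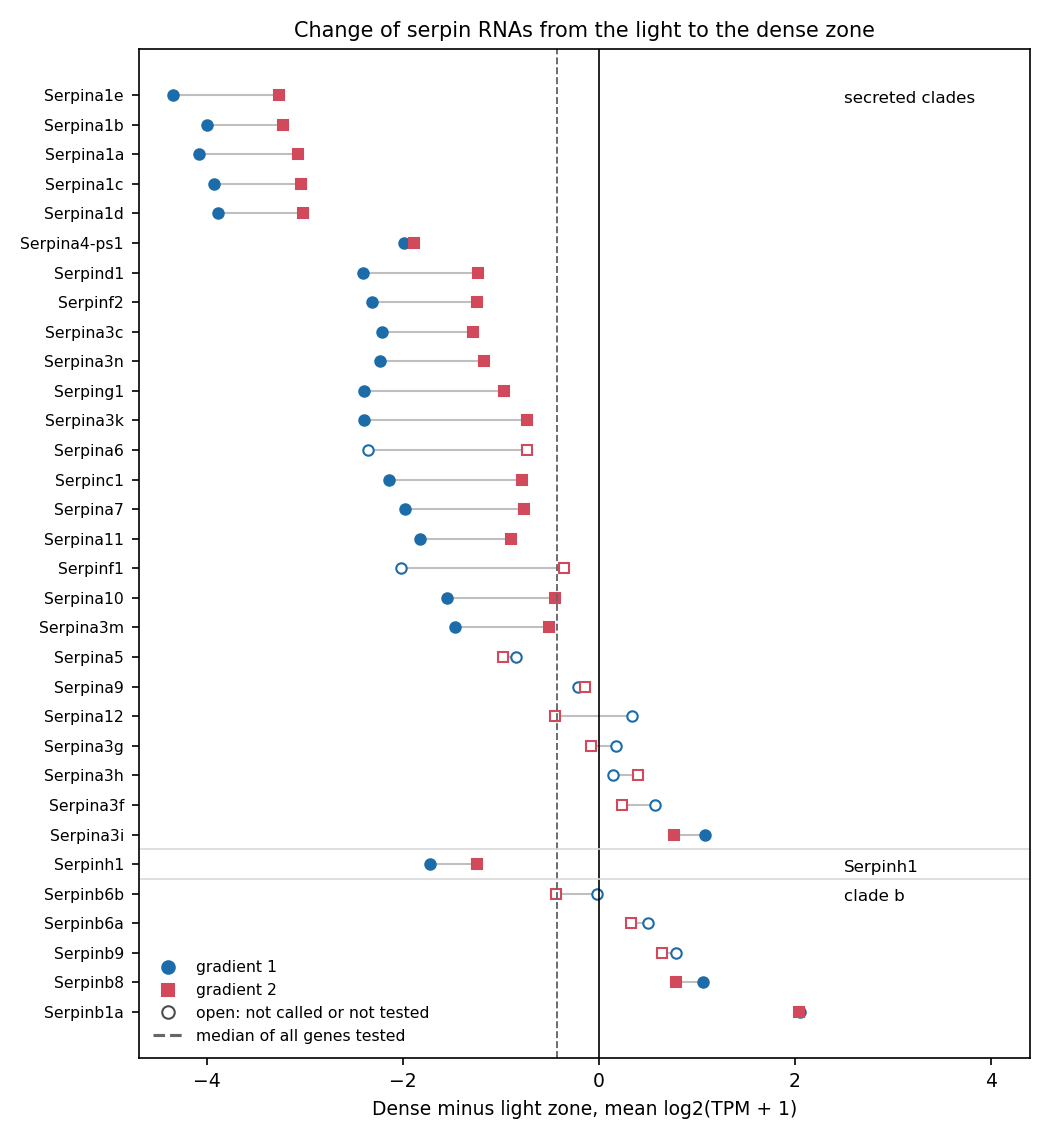
Light-to-dense change of the serpin RNAs of the secreted clades, Serpinh1 and clade b, as the difference of mean log2(TPM + 1), in gradient 1 (blue circles) and gradient 2 (red squares). Filled symbols are called at an adjusted p under 0.05 and open ones are not called or not tested, and the dashed line is the median of all genes tested, −0.43. Serpina1a to Serpina1e lie farthest to the left and Serpinb1a farthest to the right.

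The Serpina1 genes, 5 copies on chromosome 12 of the gene of alpha-1-antitrypsin, dominated the family. Alpha-1-antitrypsin is known as the main inhibitor of neutrophil elastase in plasma, and which proteases each mouse copy inhibits was not examined. The copies are described here as RNAs. Summed, the 5 copies took 4.60% of all TPM in fraction 6 of gradient 1 and 3.79% in fraction 6 of gradient 2, or 45971 and 37826 TPM. Their lowest sums were 0.177% in fraction 21 of gradient 1 and 0.268% in fraction 13 of gradient 2. All 34 serpins together made up 4.97% and 4.16% of TPM in fraction 6. Serpina1b, the most abundant member, ran from 7140 to 16712 TPM in the 8 light libraries (median 10899) and from 628 to 1205 in the 8 dense ones (median 910). No dense library came near a light one. The light mean was 16.7 times the dense mean in gradient 1 and 9.48 times in gradient 2, a change of −3.61 (SE 0.29, limma adjusted p = 0.000417).

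The other Serpina1 copies changed alike. Serpina1c changed by −3.49 (SE 0.31, limma adjusted p = 0.000502) and Serpina1a by −3.58 (SE 0.31, adjusted p = 0.000465). Serpina1d changed by −3.45 (SE 0.44, adjusted p = 0.00139). Over all 5 the changes ran from −3.81 to −3.45, and light and dense libraries were apart for each. How many of all genes had these libraries apart is not given here. The copies peaked in fraction 6 of both gradients, apart from Serpina1e, which peaked in fraction 5 of gradient 1. At that peak the mean of the 5 profiles, each divided by its own mean over the 17 fractions that both gradients have, stood at 4.33 in gradient 1 and 3.73 in gradient 2, and by fraction 10 it was 0.373 and 0.462. Pearson's R between the profiles of any pair of copies had a median of 0.995 in gradient 1 and 0.996 in gradient 2 (10 pairs over 17 fractions). Serpina1b gave 36.4% of the summed Serpina1 TPM in gradient 1 and 36.8% in gradient 2, Serpina1c 33.2% and 32.8%, Serpina1a 25.3% and 23.7%, Serpina1d 4.68% and 6.21%, and Serpina1e 0.354% and 0.397%.

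**Figure D2:**
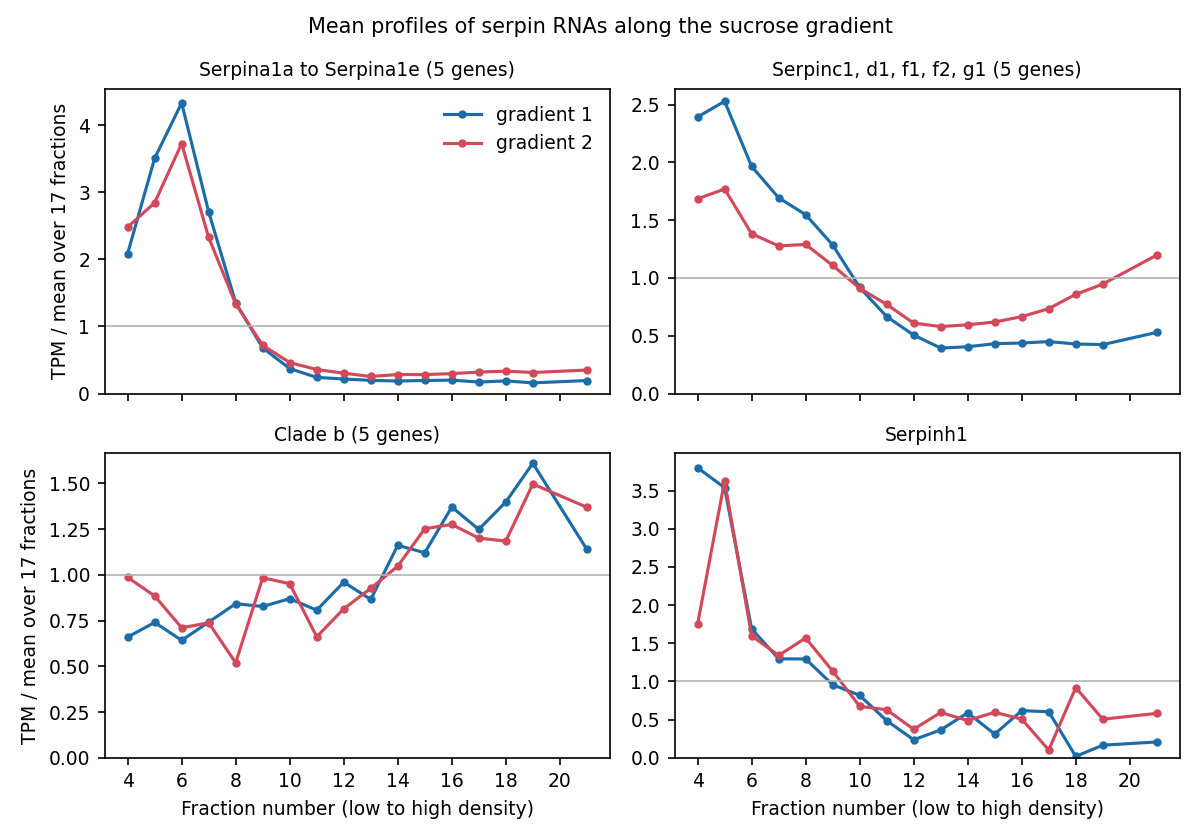
Mean profiles of 4 sets of serpin RNAs along the gradient, as TPM divided by each gene's mean over the 17 fractions present in both gradients, against fraction number from low to high density, for gradient 1 (blue) and gradient 2 (red). The Serpina1 copies peak at 4.33 and 3.73 in fraction 6, Serpinh1 is highest in fractions 4 and 5, clade b is highest in fraction 19, and clades c, d, f and g are lowest in fraction 13, with higher values again towards fraction 21 in gradient 2.

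The split among these copies is uncertain because their transcripts are nearly the same. In the GENCODE M21 annotation of GRCm38, the coding sequences have 1239 bases each, any pair is identical at 96.3% to 98.5% of them, and 86 positions vary. Of the 31-base words in a transcript, 10.0% were unique to Serpina1a among all annotated transcripts, 17.8% to Serpina1c, 35.3% to Serpina1d, 35.6% to Serpina1b and 43.6% to Serpina1e. The reads are of FVB mice, while this reference is of C57BL/6J. The gene models of Serpina1b and Serpina1d also overlap on the same strand. The sum of the 5 copies, which does not depend on the split, changed by −3.56 from light to dense (SE 0.33, limma adjusted p = 0.000546). The stretch shown for each copy, coding bases 1101 to 1160, holds 18 of the 86 variable positions and lies in the part of the gene that encodes the protease-binding loop. It is shown since the 5 copies all differ from each other in it. The capitals are bases that are not the same in all 5, and the stretches lie on the minus strand of GRCm38 in coding exons, Serpina1a at chr12:103853757-103853816, Serpina1b at chr12:103728324-103728383, Serpina1c at chr12:103895094-103895153, Serpina1d at chr12:103763762-103763821 and Serpina1e at chr12:103947100-103947159.
Serpina1a: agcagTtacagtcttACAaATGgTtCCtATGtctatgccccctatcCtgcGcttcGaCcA
Serpina1b: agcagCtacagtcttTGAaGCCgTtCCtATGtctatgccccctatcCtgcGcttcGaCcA
Serpina1c: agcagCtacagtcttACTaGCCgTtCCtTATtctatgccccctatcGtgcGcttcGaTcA
Serpina1d: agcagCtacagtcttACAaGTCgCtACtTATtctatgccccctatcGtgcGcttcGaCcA
Serpina1e: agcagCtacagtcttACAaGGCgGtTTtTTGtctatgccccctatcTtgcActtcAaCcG

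The Serpina3 genes, which expanded in rodents from the gene of alpha-1-antichymotrypsin, were called in both directions. Of the 8 tested, 4 were lower in the dense zone (Serpina3c, Serpina3k, Serpina3m and Serpina3n), 1 was higher (Serpina3i) and 3 were not called (Serpina3f, Serpina3g and Serpina3h), next to 39.6% lower and 22.3% higher over all genes. Serpina3k, the most abundant of them and the contrapsin of mouse plasma, ran from 1313 to 2551 TPM in the light libraries (median 1816) and from 305 to 1301 in the dense ones (median 648). The highest dense libraries, those of gradient 2, came close to the lowest light one without overlap. The light mean was 5.43 times the dense mean in gradient 1 and 1.66 times in gradient 2, and the change was −1.56 (SE 0.54, limma adjusted p = 0.0479). This call is a narrow one: the adjusted p was 0.183 without the light zone of gradient 1, 0.158 without that of gradient 2 and 0.150 without the dense zone of gradient 1, and 0.0514 with TPM rescaled without the 50 most abundant genes. Over the alternatives tried it ran from 0.0058 to 0.183.

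Serpina3i was the member of the secreted clades that rose, and whether its own product is secreted was not tested. It ran from 0.118 to 1.20 TPM in the light libraries (median 0.471) and from 0.788 to 3.19 in the dense ones (median 1.72), so the zones overlapped at low levels. It changed by 0.93 from light to dense (SE 0.18, limma adjusted p = 0.00692). The gene passed the filter through its middle and dense zones, as its light mean was 0.525 and 0.502 TPM in gradients 1 and 2, and with no filter the adjusted p was 0.00402. Its neighbors Serpina3f, Serpina3g and Serpina3h, a pseudogene, had changes of 0.40, 0.045 and 0.27 with adjusted p of 0.351, 0.924 and 0.389. Serpina3g went to −0.34 without the light zone of gradient 1 and to −0.22 without the dense zone of gradient 2. These 4 genes follow each other on the plus strand of chromosome 12, between 104214544 and 104269372 in GRCm38, with the other Serpina3 genes on either side. They were set apart after their values were seen. Without them, the median change of the other 22 secreted members was −1.62, a value set in part by that choice. Among the 8 Serpina3 genes, 56.5% to 83.1% of the 31-base words were unique to a gene (median 73.0%), and the model of Serpina3k overlaps that of Serpina3m on the same strand. The sum of the 8 changed by −1.49 (SE 0.51, limma adjusted p = 0.0439).

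**Figure D3:**
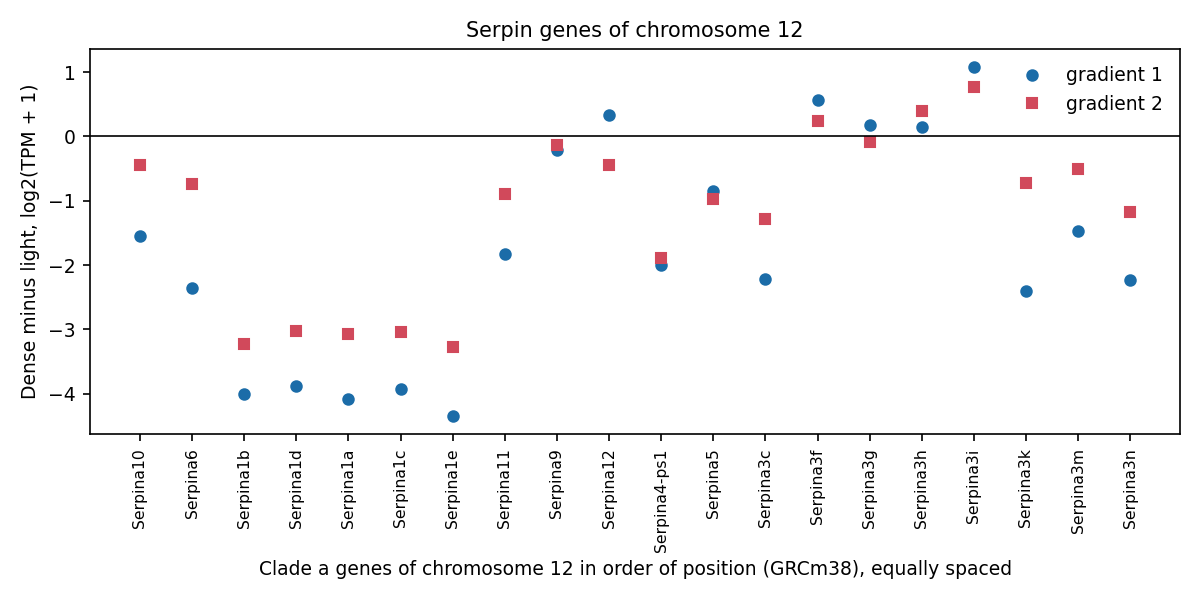
Light-to-dense change of the clade a genes of chromosome 12 (mean log2(TPM + 1) of the dense zone minus that of the light zone), in order of their position in GRCm38 and equally spaced, in gradient 1 (blue circles) and gradient 2 (red squares). The 5 Serpina1 copies are lowest, and Serpina3f to Serpina3i stand between Serpina3c and Serpina3k, which are below 0 in both gradients.

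A secreted protein is usually directed to the ER by a run of hydrophobic residues at its start, and every codon with T as its middle base encodes such a residue. The starts of the coding sequences, 25 codons each, were therefore compared as a description. With 24 secreted members that have a coding sequence, such codons numbered 8 to 13 of 25 (median 11), and the densest 10 codons held 4 to 9. All 5 clade b members had 8 of 25 and at most 5 or 6 in 10, so the ranges overlap. Serpina3g, whose annotated coding sequence has 744 bases, had 8 of 25 and at most 6 in 10. Serpina3f and Serpina3i each had 8 of 25 and at most 4 in 10, and the latter is below every clade b member. Their first 60 coding bases matched bases 31 to 90 of Serpina3n at 76.7% and 75.0%, whereas those of Serpina3m matched bases 1 to 60 of Serpina3n at 91.7%. In the same ungapped comparison, Serpina3k matched bases 1 to 60 at 55.0%. The Serpina3k start shown holds an extra codon, which an ungapped match does not allow for, so this value understates its likeness to Serpina3n. The annotated coding sequences of Serpina3f and Serpina3i thus matched best downstream of the start of Serpina3n, and the annotated ends were not checked against reads. Whether these starts bear on the place of an RNA in the gradient was not tested. The starts shown are those of Serpina1b and Serpina3k, which are abundant, of Serpina3n, to which the Serpina3 starts were compared, of Serpina3f and Serpina3i and of Serpinb1a and Serpinb8, 75 bases each in a coding exon of GRCm38, with capitals for codons whose middle base is T. Serpina1b lies at chr12:103732514-103732588 (minus), Serpina3k at chr12:104340511-104340585 (plus), Serpina3n at chr12:104408671-104408745 (plus), Serpina3f at chr12:104216881-104216955 (plus), Serpina3i at chr12:104265106-104265180 (plus), Serpinb1a at chr13:32850332-32850406 (minus) and Serpinb8 at chr1:107597470-107597544 (plus).
Serpina1b: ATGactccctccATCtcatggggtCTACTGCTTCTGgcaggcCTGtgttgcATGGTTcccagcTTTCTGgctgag
Serpina3k: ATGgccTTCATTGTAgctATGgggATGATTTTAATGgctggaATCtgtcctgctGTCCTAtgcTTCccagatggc
Serpina3n: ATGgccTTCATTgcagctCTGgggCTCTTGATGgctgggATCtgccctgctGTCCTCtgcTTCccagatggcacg
Serpina3f: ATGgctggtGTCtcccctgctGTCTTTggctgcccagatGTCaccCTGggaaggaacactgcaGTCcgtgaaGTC
Serpina3i: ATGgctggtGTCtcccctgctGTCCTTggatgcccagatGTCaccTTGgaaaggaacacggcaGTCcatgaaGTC
Serpinb1a: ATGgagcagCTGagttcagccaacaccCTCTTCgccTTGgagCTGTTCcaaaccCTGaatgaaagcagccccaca
Serpinb8: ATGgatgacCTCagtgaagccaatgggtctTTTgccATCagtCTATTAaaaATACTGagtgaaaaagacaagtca

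The serpins of clotting, fibrinolysis and complement were lower in the dense zone with smaller changes than the Serpina1 copies. Serpinc1, antithrombin, ran from 367 to 477 TPM in the light libraries (median 404) and from 92.2 to 252 in the dense ones (median 142), without overlap. It changed by −1.47 (SE 0.40, limma adjusted p = 0.0214), and its light mean was 4.46 times the dense mean in gradient 1 and 1.72 times in gradient 2. Serpind1, heparin cofactor II, ran from 82.6 to 185 TPM in the light zone (median 142) and from 20.0 to 71.3 in the dense zone (median 38.7). The zones were again apart, with a change of −1.82 (SE 0.46, limma adjusted p = 0.0164). Serpinf2, the alpha-2-antiplasmin that restrains fibrinolysis, went from a median of 199 TPM (156 to 279) to 58.5 (37.8 to 98.7), a change of −1.78 (SE 0.34, limma adjusted p = 0.00579). Serping1, the C1 inhibitor of complement, went from a median of 209 TPM (165 to 310) to 67.6 (41.4 to 113), a change of −1.68 (SE 0.38, limma adjusted p = 0.0106). Neither gene's light and dense libraries overlapped. Without the light zone of gradient 1 the adjusted p rose to 0.115 for Serpinc1, 0.0810 for Serpind1 and 0.0804 for Serping1. Without the light zone of gradient 2 it was 0.0892 for Serpinc1 and 0.0963 for Serpind1. Over the alternatives tried, it ran from 0.00264 to 0.115 for Serpinc1, from 0.0022 to 0.0963 for Serpind1 and from 0.00363 to 0.0804 for Serping1.

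Serpinf1, the pigment epithelium-derived factor that is not a protease inhibitor, was the clade c, d, f and g gene that was not called. It ran from 143 to 175 TPM in the light libraries (median 157) and from 33.4 to 147 in the dense ones (median 71.1). The zones overlapped through gradient 2, where the gene had 74.0 TPM in fraction 13, 147 in fraction 19 and 234 in fraction 24, more than in any light fraction. In gradient 1 it went from 175 TPM in fraction 5 to 25.9 in fraction 14 and stood at 54.5 in fraction 21. The change was −1.19 (SE 0.56, limma adjusted p = 0.109), and with the gradient as a block the adjusted p was 0.0340. Without the dense zone of gradient 2 it was 0.0108, at a change of −1.97, and over the alternatives it ran from 0.0108 to 0.430.

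Other secreted members also had higher values at the dense end of gradient 2 than in its middle. Serpina3k had 1780 TPM in fraction 24 of gradient 2, against 761 in fraction 15 and 2149 in fraction 5. Serpinc1 had 410 TPM in fraction 24, against 164 in fraction 15 and 417 in fraction 5. Serpina1b had 1361 TPM there, far below the 14052 of fraction 6. The mean profile of clades c, d, f and g was 0.580 in fraction 13 and 1.20 in fraction 21 of gradient 2, and 0.394 and 0.529 in the same fractions of gradient 1. Gradient 1 has no library beyond fraction 21, and the difference between the gradients was not tested.

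Between the dense and middle zones, limma called 0 members lower and 0 higher, while 22.5% of all genes tested were lower and 4.79% higher. At an unadjusted p under 0.05, 2 of 31 members differed, both of clade b, against 4742 of the 11754 genes. The median change of the secreted members was −0.15, against −0.28 for all genes tested, but its sign depends on the gradient. It was −0.37 in gradient 1 and 0.045 in gradient 2, with the dense zone above the middle zone in 4 of 26 members in gradient 1 and in 14 of 26 in gradient 2. The pooled median was 0.13 without the middle zone of gradient 2, 0.21 without the dense zone of gradient 1, −0.45 without the middle zone of gradient 1 and −0.65 without the dense zone of gradient 2. With the gradient as a block, 2 members were lower (Serpina12 and Serpina4-ps1) and 2 higher (Serpinb1a and Serpinb9), whereas 39.3% of all genes were lower and 14.1% higher. Without the dense zone of gradient 2, 1 member was lower, Serpina3m, and 13.8% of all genes were.

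Some of the secreted members were already lower in the middle zone than in the light zone. Of 25, 13 were lower there, 1 (Serpina3i) was higher and 11 were not called, and 24.1% of all genes tested were lower and 23.5% higher. The median change was −1.38 (−1.82 in gradient 1 and −0.92 in gradient 2), against 0.046 for all genes tested. Serpina1b changed by −3.33 between these zones (SE 0.29, limma adjusted p = 0.00121). Clade b had 1 of 5 higher, Serpinb1a, and 0 lower in limma, with 1 of 5 at an unadjusted p under 0.05 (6568 of the 11754 genes were), and a median change of 0.27. That median was 0.039 without the middle zone of gradient 1. The count of lower secreted members was 6 without the light zone of either gradient or the middle zone of gradient 1, when 12.0% to 14.5% of all genes were lower. The higher calls of Serpina3i and Serpinb1a went to 0 without the light or the middle zone of either gradient. With the gradient as a block, 18 secreted members were lower, among them Serpina3k (adjusted p = 0.0204), Serpinc1 (0.0200) and Serpinf1 (0.0285), and Serpina12 was higher (0.00774). Over all genes, 35.0% were lower and 37.2% higher with the block. The adjusted p without the block was 0.0730 for Serpina3k, 0.0530 for Serpinc1, 0.101 for Serpinf1 and 0.261 for Serpina12.

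Serpina12, known as vaspin, peaked beyond the light zone in both gradients. It was highest in fraction 10 of gradient 1, at 63.2 TPM, and in fraction 9 of gradient 2, at 35.2 TPM. The middle libraries ran from 17.3 to 63.2 TPM (median 42.0), the light ones from 8.38 to 49.1 (median 17.8) and the dense ones from 7.16 to 36.2 (median 19.0). Light and dense libraries overlapped within each gradient. Its light-to-dense change was −0.056, with a limma adjusted p of 0.948. That value was 0.36 without the light zone of gradient 1 and 0.75 without the dense zone of gradient 2. Serpina6, the corticosteroid-binding globulin, ran from 62.8 to 204 TPM in the light libraries and from 11.7 to 127 in the dense ones, with overlap between the gradients. Its change was −1.55 (SE 1.06, limma adjusted p = 0.246) and its adjusted p was 0.0121 with the gradient as a block and 0.0363 without the dense zone of gradient 2. Over the alternatives it ran from 0.0121 to 0.887. Serpina9 changed by −0.17 (limma adjusted p = 0.712) at 0 to 2.97 TPM in these zones, and its change was 0.15 without the light zone of gradient 2 and 0.18 without the dense zone of gradient 1.

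Serpinh1 was rare and lower in the dense zone. It ran from 2.19 to 6.50 TPM in the light libraries (median 2.88), from 0.404 to 1.40 in the middle ones and from 0.0326 to 1.50 in the dense ones (median 0.828). The light libraries overlapped with neither of the other zones. The light mean was 7.34 times the dense mean in gradient 1 and 4.09 times in gradient 2, and the change was −1.49 (SE 0.20, limma adjusted p = 0.00161). Between the middle and light zones it was −1.32 (SE 0.20, limma adjusted p = 0.00412). The gene passed the filter through its light zone, since its mean was below 1 TPM in the middle and dense zones of both gradients, and with no filter the adjusted p from light to dense was 0.00128. At these levels, a change on the log2(TPM + 1) scale understates the fold.

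In liver, Serpinh1 is best known from stellate cells, which make collagen, so markers of these cells are given beside it. Of 8 stellate cell markers 7 were in both tables, without Col1a1, and 6 of the 7, all tested, were lower in the dense zone, against 39.6% of all genes, and 1, Des, was not called, at 0.46 (limma adjusted p = 0.173) with its peak in fraction 21 of both gradients. In gradient 1 their sum had a lowest, median and highest library of 12.0, 26.6 and 77.6 TPM, and in gradient 2 of 23.6, 36.2 and 91.9 TPM, with Dcn the most abundant. The median change of the list was −1.47, and Dcn changed by −1.28 (limma adjusted p = 0.0264). Of 18 genes of collagen and its processing 15 were in both tables, and 7 of 10 tested were lower and 3 not called, with a median change of −0.82 over the 15. Ppib and Col18a1, the most abundant of them, changed by −0.82 and −0.58 with adjusted p of 0.187 and 0.0690. The part of these cells in the value of Serpinh1 was not tested.

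The clade b serpins were rare and gave the clearest rise in Serpinb1a, an inhibitor of neutrophil proteases. It ran from 0 to 1.85 TPM in the light libraries (median 0.969), from 1.77 to 5.07 in the middle ones (median 2.99) and from 3.71 to 12.0 in the dense ones (median 6.76). The light and dense libraries were apart, the light and middle ones overlapped at their edge, and the middle and dense ones more widely. It changed by 2.05 from light to dense (SE 0.31, limma adjusted p = 0.00246), and the dense mean was 9.12 times the light mean in gradient 1 and 6.60 times in gradient 2. The gene passed the filter largely through its middle and dense zones, as its light mean was 0.606 and 1.29 TPM in gradients 1 and 2. With no filter, Serpinb1a was still called higher from light to dense. Serpinb8 ran from 2.78 to 4.96 TPM in the light libraries (median 3.50) and from 5.82 to 11.7 in the dense ones (median 7.45), without overlap. It changed by 0.93 (SE 0.23, limma adjusted p = 0.0144). Its adjusted p was 0.0648 without the light zone of gradient 1, 0.0891 without that of gradient 2 and 0.0583 without the dense zone of gradient 1, and over the alternatives it ran from 0.00143 to 0.0891.

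The other clade b members were not called, although after quantile normalization Serpinb6a and Serpinb9 were higher (adjusted p = 0.0300 and 0.0259). Serpinb6a, the most abundant, ran from 13.2 to 24.6 TPM in the light libraries (median 20.1) and from 20.6 to 34.2 in the dense ones (median 25.3), with overlap. Its change was 0.41 (SE 0.25, limma adjusted p = 0.200), and with the gradient as a block the adjusted p was 0.0392. Serpinb9, the inhibitor of granzyme B that protects cytotoxic cells from their own granules, ran from 2.48 to 7.40 TPM in the light zone (median 4.41) and from 5.58 to 11.7 in the dense zone (median 8.01), also with overlap. Its change was 0.71 (SE 0.30, limma adjusted p = 0.0848), and 0.00283 was its adjusted p with the gradient as a block. Over the alternatives the adjusted p ran from 0.0300 to 0.495 for Serpinb6a and from 0.00283 to 0.367 for Serpinb9. Serpinb6b was the clade b member below 0, with a change of −0.23 (limma adjusted p = 0.336) at 0.441 to 2.53 TPM in the light and dense libraries. Of the 31-base words, 88.0% to 99.4% were unique to each clade b gene.

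Clade b serpins are also known from leukocytes, so markers of these cells are given beside them, with 39.6% of all genes lower and 22.3% higher. Of 8 neutrophil markers 3 were in both tables, without Retnlg, Mpo, Elane, Camp and Ngp. Their sum ran from 2.93 to 36.8 TPM over the libraries of gradient 1 and from 5.29 to 18.9 in gradient 2, with Ly6g the most abundant, and 1 of the 3 was lower in the dense zone and 2 were not called. Of 8 T and NK cell markers 4 were in both tables, without Gzma, Gzmb, Klrb1c and Ncr1, and none passed the filter. Their sum ran from 0 to 5.81 TPM in gradient 1, where Nkg7 was the most abundant, and from 0.331 to 5.44 in gradient 2, where Cd3d was. Of 8 Kupffer cell markers, all in both tables and led by Cd5l, 5 were lower and 3 not called, and their sum was 211 TPM in the light zone and 85.2 in the dense zone of gradient 1, and 197 and 106 in gradient 2. The part of these cells in the clade b values was not tested. Of 12 proteases that clade b serpins can inhibit, 7 were in both tables and 6 were tested, 2 higher (Casp8 and Casp1), 2 lower (Ctsh and Ctsb) and 2 not called, with a median change of −0.60 over the 7. These counts are near the shares of all genes, 22.3% higher and 39.6% lower.

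Serpine3, of clade e, was below the filter and is given as values. It ran from 0.792 to 5.50 TPM in the light libraries and from 0 to 0.202 in the dense ones, the median dense library being listed at 0, and its change was −1.40. Serpina5, also below the filter, changed by −0.91.

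The place of a whole profile was summarized as its center, the mean fraction number weighted by TPM over the 17 shared fractions. The median center was 8.73 in gradient 1 and 10.7 in gradient 2 for the secreted members, 13.2 and 13.3 for clade b, and 11.3 in both gradients for all genes tested. Serpinh1 had its center at 7.83 and 9.23, and the Serpina1 copies had theirs at a median of 7.23 and 7.89. Of the 26 secreted members, 20 peaked between fractions 4 and 7 in gradient 1 and 19 did in gradient 2, whereas 5 of 5 clade b members peaked in fraction 14 or later in gradient 1 and 4 of 5 in gradient 2. The same counts over all genes are not given here, so these describe the members only. Pearson's R between the gradients, over the same 17 fractions, had a median of 0.889 for the secreted members and 0.688 for clade b.

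Shapes were alike within some groups and not within others. Pairs of clades c, d, f and g had a median R of 0.974 in gradient 1 and 0.861 in gradient 2 (10 pairs), and pairs of Serpina3 genes −0.122 and −0.242 (28 pairs). Pairs within clade b had 0.285 and 0.296 (10 pairs), at low TPM with unknown counting error, and the lowest R of a clade b member between the gradients was −0.024. The mean profile of the secreted members had an R of 0.875 and 0.859 with Serpinh1, and of −0.711 and −0.484 with clade b. Fractions of a gradient share the homogenate and the fixed sum of TPM, so these values describe 17 points that are not independent.

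Among 6580 genes outside the family that averaged 10 TPM or more in each gradient, those most like Serpinh1 included Dag1, Clcn4, Tmed2 and Ero1lb, with a mean R over the gradients from 0.957 down to 0.952. Those most like the mean of the secreted members were Npc1, Angptl8, Abca8a, C8b and Cyp4f14 (0.994 to 0.985). Clade b was matched less closely, by Xrcc4, Crot, Maob, Kynu and Hsdl2 (0.916 to 0.907). All of these were chosen by R alone.

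Proteases that secreted serpins restrain, most of them plasma proteins of the liver, were also given as a list, which counts tissue factor (F3), a membrane cofactor, as well. Of 16 tested, 12 were lower in the dense zone and 4 not called in limma, against 39.6% lower over all genes, with a median change of −1.43 over the 17 in both tables. Prothrombin (F2), a target of Serpinc1 and Serpind1, changed by −1.77 (adjusted p = 0.00105), and plasminogen (Plg), whose product plasmin is the target of Serpinf2, by −1.50 (adjusted p = 0.00304). Proc and Masp2 were not called, at −0.66 and −0.34 (adjusted p = 0.261 and 0.523). Of 30 other plasma proteins, 21 were lower, 1 (Apoa2) higher and 8 not called (over all genes, 39.6% were lower and 22.3% higher), with a median change of −1.76. Among them Alb changed by −2.59 and Trf by −2.31, while Apoa2 changed by 1.25 (adjusted p = 0.0378). Agt, angiotensinogen, is a serpin by descent that its symbol does not show, and it changed by −1.61 (adjusted p = 0.0341).

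Genes of the ER and of the cytosol are given for comparison with the serpin groups, and their counts stand beside 39.6% lower and 22.3% higher over all genes. Of 20 genes of glycoprotein folding and export, 18 were lower in the dense zone, 1 (Sec61b) higher and 1 not called, with a median change of −1.91. P4hb, a disulfide isomerase, changed by −2.73 and Calr, a lectin chaperone, by −2.16 (adjusted p = 0.00324 and 0.0111). Of 22 cytosolic enzymes of hepatocytes, 21 were higher and 1 lower, with a median change of 2.42. Ass1, Hpd and Gnmt, among the most abundant, changed by 1.95, 3.08 and 2.95. The clade b median of 0.71 was below that of these enzymes, and the secreted median of −1.51 stood beside those of the ER and plasma lists. Hepatocyte markers, all 10 in both tables, held secreted and cytosolic genes alike: 4 were higher, 4 lower and 2 not called, and they summed to 44763 TPM in the light zone and 23263 in the dense zone of gradient 1, and to 34324 and 39933 in gradient 2.

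Because TPM are shares, the scaling of the libraries shifts every change. Quantile normalization moved the median change of all genes from −0.43 to −0.053, and 30.7% of genes were then higher and 29.9% lower in the dense zone, against 22.3% and 39.6% before. Relative to the median of all genes, the secreted median was −1.08 before and −1.47 after, that of clade b 1.14 and 1.31, and Serpinh1 −1.06 and −0.78. The direction of these groups thus did not depend on it, but that of single members did: Serpina12, Serpina9 and Serpinb6b went above 0, to 0.21, 0.46 and 0.46. Between the dense and middle zones, 10.3% of genes were higher and 13.7% lower after it, and the median of the secreted members went from −0.15 to 0.059. Of the 17 secreted members lower from light to dense, 13 were still called after it and Serpina3c, Serpina3k (adjusted p = 0.0660), Serpina3n and Serpina7 were not, while Serpina3h was higher (adjusted p = 0.0175).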

How the data were processed

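RNA was measured in 39 libraries, and all value columns were matched to a sample (0 unmatched). The authors demultiplexed with bcl2fastq 2.16.0.10, ran Kallisto (version not given in the sources used here) on RefSeq transcripts of mm10, and deposited 1 TPM value for each gene symbol and library, for genes above a TPM of 1 in some fraction. TPM holds no counts, so depth and counting error are unknown, no count model was used, and precision is known only from the spread of 2 gradients. How Kallisto divided reads among paralogs is not given in the sources used here.

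From these values, log2(TPM + 1) was averaged over the 4 fractions of each zone and gradient, giving 6 units, and all 3 zones were fitted with limma (trend, Benjamini-Hochberg over the 11754 genes whose TPM averaged 1 or more). A change is on the log2(TPM + 1) scale, which understates that of rare genes. Group medians are over all members, without a filter and without a test. Transcripts, coordinates and sequences are from GENCODE M21 for GRCm38, and 31-base words were compared on the strand of each transcript. Protein features were not analysed here.

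Each gradient was loaded with 1 homogenate, so its zones are paired: deviations of gradients from their mean correlated over genes between the light and middle (r = 0.665), light and dense (0.540) and middle and dense zones (0.798). A fit with the gradient as a block was therefore run. Other alternatives were a pseudocount of 0.1, no filter or a mean TPM of at least 10, quantile normalization, TPM rescaled after removal of the 50 most abundant genes, shifted zone borders, log2 of the mean TPM, paralogs summed, other memberships, and leaving out each unit.

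Genes named with values are the 6 most abundant secreted members, all of clades c, d, f and g, the 4 most abundant of clade b, Serpinh1, members whose call or direction differs from most of their group, up to 5 profile neighbors per group and up to 4 most abundant genes per list. Agt, Casp1, Des and the genes said to be set apart were named after their values were seen. Some of these genes, and 1 coding start, are not reported here. The members and lists were chosen with earlier results of these data known. Lists not described with the results gave, from light to dense, 6 of 7 sinusoidal endothelial markers lower and 1 not called, 3 of 3 cholangiocyte markers not called, and 2 of 3 erythroid markers lower and 1 not called (over all genes, 39.6% were lower and 22.3% higher).

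Python 3.11.15, NumPy 2.4.6, pandas 2.3.3, matplotlib 3.10.9, R 4.3.3 and limma 3.58.1 were used.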

Additional observations from a re-analysis of the deposited data

How the results depend on the processing

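In each value below, the cause of a difference was not tested unless fewer genes or units made it. With the Serpina1 and Serpina3 genes summed, secreted members lower went from 17 to 10 (light to dense) and from 13 to 7 (light to middle). Those higher went from 1 to 0 in both. Fewer members were counted, as the 5 Serpina1 rows became a sum and the 8 Serpina3 rows another, so these counts are of unlike totals. Over all genes, 39.6% were lower from light to dense and 24.0% from light to middle with these sums. From light to middle the Serpina3 sum was also not called (limma adjusted p = 0.0724), whereas Serpina3c and Serpina3n were called as single genes. At a mean TPM of at least 10, which removed rare genes, members higher from light to dense went from 1 to 0 (secreted) and 2 to 0 (clade b), and from light to middle from 1 to 0 in each. Quantile normalization gave 13 secreted members lower and 2 higher, and 4 clade b members higher, from light to dense, 2 clade b members higher from light to middle, and 2 members higher from middle to dense. With zones moved towards the middle, members higher from light to middle went from 1 to 0 in both groups.

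With the gradient as a block, clade b members higher went from 2 to 4 (light to dense) and from 1 to 2 (light to middle), secreted members higher from 1 to 2 (light to middle), and members called from middle to dense from 0 to 2 in each direction. Over all genes, those higher went from 22.3% to 30.5% (light to dense) and from 23.5% to 37.2% (light to middle). The block ended no call, and added those named with the results, Serpina6 and Serpina4-ps1 (lower) and Serpinb8 (higher) from light to middle, and no others.

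Leaving out 1 unit, with the lone gradient assumed to vary like the other zones, gave 7 to 19 secreted members lower and 1 higher, and 1 to 2 clade b members higher, from light to dense. From light to middle it gave 6 to 16 secreted members lower and 0 to 1 higher, and 0 to 1 of clade b higher. From middle to dense, 0 to 1 were lower and 0 higher, but without either middle unit 0 of 11754 genes were called in limma, and otherwise 13.8% to 18.6% were lower. Secreted medians ran from −2.12 to −0.89 (light to dense), −1.69 to −0.99 (light to middle) and −0.65 to 0.21 (middle to dense), and clade b medians from 0.47 to 0.85, 0.039 to 0.42 and 0.26 to 0.66.

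The secreted median from middle to dense reversed to 0.059 after quantile normalization, to 0.045 in gradient 2 alone, to 0.13 without the middle zone of gradient 2 and to 0.21 without the dense zone of gradient 1. The clade b median from light to dense was 0.83 with a pseudocount of 0.1 and 1.25 after quantile normalization, from light to middle 0.039 in gradient 2 alone, and from middle to dense 0.77 after quantile normalization. Over all 22 fractions of gradient 2, the center was 15.2 for clade b, 10.3 for Serpinh1, 12.0 for the secreted members, 12.7 for clades c, d, f and g and 12.5 for all genes. Among single genes that were not called, the change from light to dense reversed for Serpina12 (0.21 by quantile normalization, 0.18 with 3 fractions a zone, and −0.86 to 0.75 with 1 unit left out), Serpina3g (−0.34 to 0.43 with 1 unit left out), Serpina9 (0.46 by quantile normalization, −0.53 to 0.18 with 1 unit left out) and Serpinb6b (0.46 by quantile normalization). Depth is unknown, so values near 0 TPM cannot be given a counting error.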
